A study of Mus musculus with 14 samples.

Results

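The corpus callosum, a white matter tract made mostly of axons and the glia around them, was examined for 7 miRNAs known for their high expression in neurons or the neural lineage: mmu-miR-124, mmu-miR-9, mmu-miR-128, mmu-miR-137, mmu-miR-138, mmu-miR-153 and mmu-miR-218, written here without the prefix for mouse. The members were chosen by an exact match of their names to the array's miRNA names, a rule that uses no measured value. The list of names itself was drawn up with earlier results of these data known. They are 7 of the 566 mouse miRNAs on the array. All 7 were detected on every array, and none differed between the groups of mice beyond the adjusted threshold. Between the 2 slides that carried the arrays, miR-9 and miR-138 passed it with at least a 2-fold difference, as did 13.3% of the 225 miRNAs tested. miR-128 passed it short of 2-fold, where 30.7% of those tested passed it at any fold.

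The study used cuprizone, a copper chelator that leads to loss of oligodendrocytes and myelin, to follow miRNAs during demyelination and remyelination. Labelled total RNA of 1 mouse was hybridized to each of 14 single-colour arrays. Control mice (n = 4) were kept on a normal diet, 4wd mice (n = 4) received chow with 0.2 to 0.4% cuprizone for 4 weeks, 2dr mice (n = 4) were returned to regular diet for 2 days after the same 4 weeks, and 2wr mice (n = 2) for 2 weeks. By the labels all mice were male, and the methods place the start of cuprizone at 7 to 8 weeks of age. No group carried a transgene or deletion as far as the labels state, and the strain of these mice is not given in the sources used here. The labels describe punches of the affected area, whereas the methods describe the tract cut from frozen coronal sections. Either way the sample holds axons, oligodendrocytes, astrocytes, microglia and vessels together, so that fewer cells of a type and less RNA per cell cannot be told apart.

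A miRNA is cut from a hairpin precursor and guides a silencing complex to messenger RNAs that match its seed, the bases 2 to 8 of the mature strand. Each hairpin has a pair of arms, and the arm named with a star is the one that was first seen as the minor product. In neurons these miRNAs are known for repressing transcripts of other cell types (miR-124), for the passage from neural progenitor to neuron (miR-9), for neuronal excitability (miR-128), for neuronal maturation (miR-137), for dendritic spine shape (miR-138), for synaptic proteins (miR-153) and for motor neurons (miR-218). miR-9 is also known from neural progenitors, and miR-138 from differentiating oligodendrocytes.

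The mature sequences are shown to let a reader see that the 6 members with a sequence here do not share a seed. Their targets were not examined. The set of mature names from RefSeq (GRCm38.p6) used here held an entry for 6 of the 7 members, under the current arm names. miR-124 was not matched in that set and is named only. The star arm of miR-9 is shown because the results turn on both arms of that hairpin. Sequences run 5′ to 3′ and capitals mark the seed.
miR-9: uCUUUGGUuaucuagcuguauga
miR-9*: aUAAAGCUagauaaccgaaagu
miR-128: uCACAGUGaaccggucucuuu
miR-137: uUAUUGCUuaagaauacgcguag
miR-138: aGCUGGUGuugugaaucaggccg
miR-153: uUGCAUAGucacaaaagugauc
miR-218: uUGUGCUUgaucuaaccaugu
The 6 matched members had 6 different seeds, and only that of miR-218 recurred in the table, in miR-7002-3p.

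Several members are made from more than 1 locus, and the array does not separate the copies. miR-9 comes from 3 loci, at chr3:88215613-88215635, chr7:79505279-79505301 and chr13:83738821-83738843 on the plus strand, each within the span of a long noncoding RNA gene. miR-128 lies within the span of R3hdm1 (chr1:128202404-128202424, plus strand) and of Arpp21 (chr9:112118644-112118664, minus strand). miR-138 lies within Nup93 (chr8:94324312-94324334) and at chr9:122682898-122682920, and miR-218 within the axon guidance genes Slit2 (chr5:48223966-48223986) and Slit3 (chr11:35616840-35616860), all on the plus strand. miR-137 (chr3:118433901-118433923) and miR-153 (chr12:117250860-117250881, within Ptprn2) have 1 locus each, also on the plus strand. These spans cover the whole gene, introns included, and the position within exon or intron was not determined.

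The image software summed the 2 probes (20 spots) of each member into a total signal. Levels are given as log2 of this signal over the 75th percentile of the array, so that 0 is a signal equal to that percentile, and a level compares arrays for 1 miRNA but not 1 miRNA with another. The arrays detected 181 to 287 mouse miRNAs each. Their summed signals lay between 45664 and 173924, with 50187 to 90452 at 4wd and 85417 to 173924 in control, so the members' values depend on the scaling described here. Slide 1 held 8 arrays and slide 2 held 6, with arrays of all groups on both (2 control, 2 4wd, 3 2dr and 1 2wr on slide 1, and 2, 2, 1 and 1 on slide 2), and the slides were scanned on separate days, so that slide and scan cannot be told apart. The first principal component of the 225 miRNAs tested held 45.9% of the variance, and on it no slide 1 array reached any slide 2 array. Differences between groups are therefore given over all arrays and within each slide. The share of all miRNAs tested that lay above or below a group is given over all arrays only, so the counts of members within a slide have no such share beside them. Slide 1 also holds 2dr replicate 2, the array with the fewest miRNAs detected (181) and the lowest summed signal (45664).

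Detection was clear for every member. The software called all 7 detected on 14 of 14 arrays, with no saturated spot. At least 19 of 20 spots stood well above background on every array for each member but miR-153, for which at least 10 of 20 did. Total signals ran from 1235 to 7103 for miR-124, 1275 to 9407 for miR-128, 273 to 6113 for miR-9 and 107 to 873 for miR-218, and from 70.3 to 522 for miR-137, 49.4 to 617 for miR-138 and 21.9 to 186 for miR-153. Each member was detected on every array of all 4 groups, so no member entered the tests through 1 group alone. Of the other arms on the array, miR-9* was detected on 14 arrays, miR-138* on 12 and miR-124* on 11. Neither star arm of miR-218 (miR-218-1* and miR-218-2*) was detected on any of the 14 arrays.

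The members' share of the summed signal of all mouse miRNAs, which reflects probe brightness as well as amount, was 11.6 to 13.6% on control arrays (median 12.8%), 7.73 to 13.7% at 4wd (median 11.5%), 7.80 to 12.4% at 2dr (median 10.3%) and 11.6 and 12.1% at 2wr. The ranges of the groups overlapped.

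**Figure D1:**
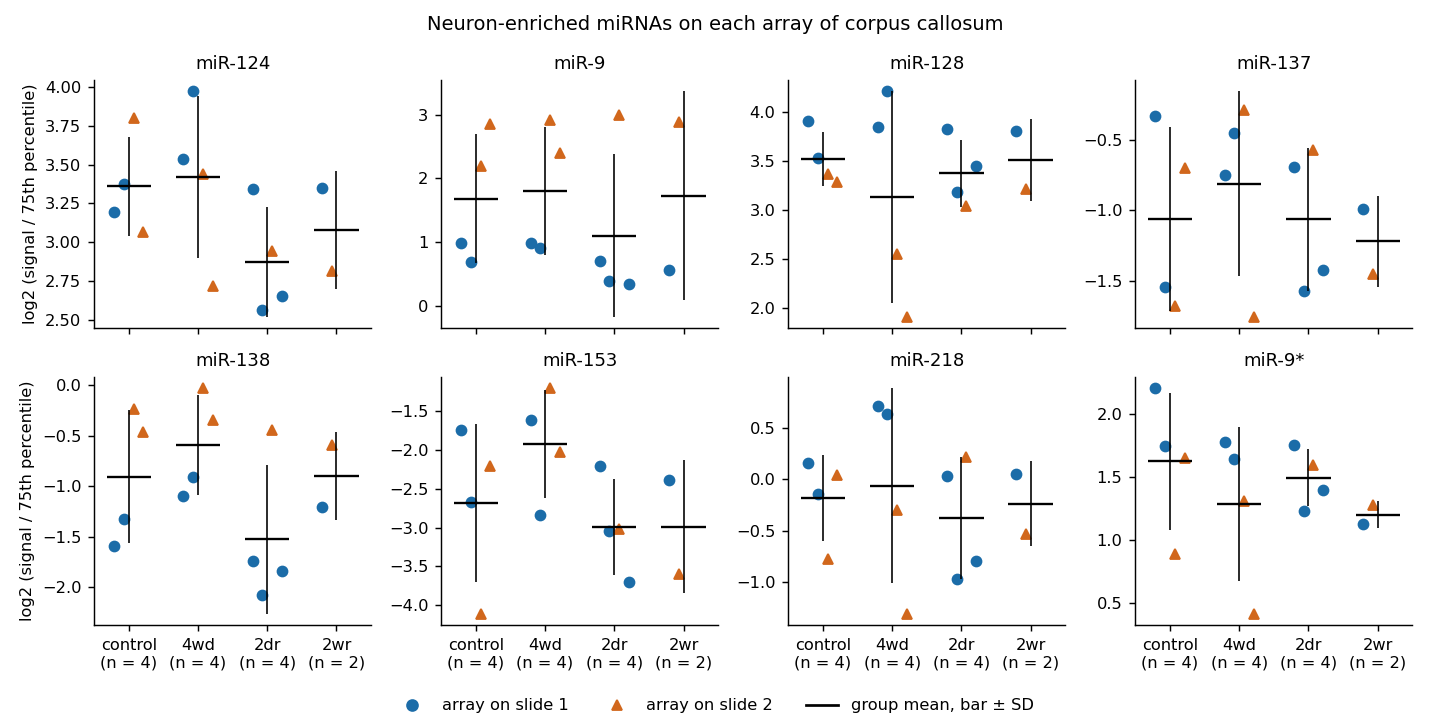
Levels of the 7 members and of miR-9* on each array (y axis: log2 of the signal over the array's 75th percentile; x axis: group with its number of arrays). Blue circles are arrays on slide 1 and orange triangles arrays on slide 2, black lines are group means and bars ± SD. For miR-9 and miR-138 the arrays separate by slide, with every slide 2 array above every slide 1 array, while the groups overlap in all panels of members.

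miR-124, which lowers many transcripts of non-neuronal cells, overlapped between all groups. Its levels were 3.20, 3.37, 3.80 and 3.07 on the 4 control arrays and 3.54, 3.97, 3.44 and 2.72 on the 4wd arrays. They were 3.35, 2.56, 2.94 and 2.65 on the 2dr arrays and 3.35 and 2.81 on the 2wr arrays. At 2dr 3 of the 4 arrays lay below all control arrays, while replicate 1 lay within their range. Against control, the difference was 0.06 at 4wd (95% interval -0.57 to 0.69, adjusted p = 0.981 from limma), -0.48 at 2dr (-1.11 to 0.14, adjusted p = 0.448) and -0.28 at 2wr (-1.05 to 0.49, adjusted p = 0.996). The difference at 2dr was close to the same within slide 1 (-0.43) and slide 2 (-0.49, 1 2dr array), with an exact two-sided permutation p = 0.114 over all arrays. At 4wd the slides gave opposite signs, 0.47 and -0.35.

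miR-9, a miRNA of neural progenitors and neurons, followed the slide and not the group. On slide 1 its levels were 0.99 and 0.69 in control, 0.98 and 0.91 at 4wd, 0.70, 0.39 and 0.34 at 2dr and 0.57 at 2wr. On slide 2 they were 2.19 and 2.85 in control, 2.91 and 2.40 at 4wd, 3.00 at 2dr and 2.89 at 2wr. The highest slide 1 array thus lay at 0.99 and the lowest slide 2 array at 2.19, whatever the diet. Over all arrays the differences from control were 0.12 at 4wd (95% interval -1.49 to 1.74), -0.57 at 2dr (-2.19 to 1.04) and 0.05 at 2wr (-1.93 to 2.03), the widest intervals of the 7 members. At 2dr, where 3 of 4 arrays were on slide 1 against 2 of 4 in control, the difference was -0.08 once slide was a term in the fit (adjusted p = 0.861 from limma), with -0.37 within slide 1 and 0.48 within slide 2. Leaving out 1 array moved the difference at 2dr between -1.20 (without 2dr replicate 3) and -0.18 (without control replicate 4).

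miR-128, which is known for restraining the excitability of adult neurons, also differed between slides, in the other direction. Its levels were 3.91 and 3.52 (slide 1) and 3.37 and 3.29 (slide 2) in control, and 3.84 and 4.21 (slide 1) and 2.55 and 1.91 (slide 2) at 4wd. At 2dr they were 3.82, 3.18 and 3.45 on slide 1 and 3.04 on slide 2, and at 2wr 3.81 on slide 1 and 3.21 on slide 2. Both slide 2 arrays of 4wd were the lowest of the 14, and both slide 1 arrays of 4wd lay close to or above the highest control array. The difference of 4wd from control was -0.39 over all arrays (95% interval -1.33 to 0.55, adjusted p = 0.827 from limma), made of 0.31 within slide 1 and -1.10 within slide 2. At 2dr it was -0.15 (adjusted p = 0.871) and at 2wr -0.01 (adjusted p = 0.996).

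miR-138, which is known for limiting the size of dendritic spines, had its lowest group mean at 2dr and also differed between slides. On slide 1 the levels were -1.60 and -1.33 in control, -1.10 and -0.91 at 4wd, -1.74, -2.08 and -1.84 at 2dr and -1.21 at 2wr. On slide 2 they were -0.23 and -0.46 in control, -0.03 and -0.34 at 4wd, -0.45 at 2dr and -0.60 at 2wr. Within slide 1 the 3 2dr arrays lay below all others, and on slide 2 the 2dr array lay within the control range. The difference of 2dr from 4wd, -0.93, was the only member value with an unadjusted p under 0.05 among the 5 comparisons of groups (95% interval -1.83 to -0.04, p = 0.0427 and adjusted p = 0.249 from limma, exact permutation p = 0.0857). Within slide 1 it was -0.88 and within slide 2 -0.26, and with slide in the fit -0.68 (adjusted p = 0.125 from limma). Against control, miR-138 differed by 0.31 at 4wd, -0.62 at 2dr and 0.0040 at 2wr, with adjusted p of 0.876, 0.454 and 0.996 from limma. The difference at 2dr was -0.40 without control replicate 3 and -0.98 without 2dr replicate 3.

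miR-153, which is known for targeting transcripts of synaptic proteins, varied widely within groups, with an SD of 0.61 to 1.02. Its control levels were -1.75, -2.68, -4.11 and -2.21, and its 4wd levels -1.62, -2.84, -1.20 and -2.03. The 2dr arrays were at -2.20, -3.04, -3.02 and -3.71 and the 2wr arrays at -2.39 and -3.59. Control replicate 3, at -4.11, was the lowest of the 14 arrays, followed by 2dr replicate 4 at -3.71. The difference of 4wd from control was 0.76 (95% interval -0.37 to 1.90, adjusted p = 0.601 from limma), with -0.02 within slide 1 and 1.54 within slide 2, the slide that holds control replicate 3. Without that array it was 0.29 (adjusted p = 0.905 from limma). The difference of 2dr from 4wd was -1.07 (95% interval -2.20 to 0.06, adjusted p = 0.305, exact permutation p = 0.0571), with -0.75 within slide 1 and -1.40 within slide 2.

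miR-137, which acts in the maturation of young neurons, and miR-218, an abundant miRNA of motor neurons, stayed within 0.25 of control in their group means. miR-137 ranged from -1.68 to -0.33 in control, -1.76 to -0.28 at 4wd, -1.57 to -0.57 at 2dr and -1.45 to -0.99 at 2wr, and its 3 differences from control were 0.25, -0.0023 and -0.16. miR-218 ranged from -0.78 to 0.15 in control, -1.31 to 0.71 at 4wd, -0.97 to 0.22 at 2dr and -0.53 to 0.05 at 2wr, and its differences were 0.12, -0.20 and -0.06. At 2dr the slides gave opposite signs for both, -0.29 and 0.62 for miR-137 and -0.58 and 0.58 for miR-218 within slide 1 and slide 2. For both miRNAs the control range covered or overlapped each of the other ranges.

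Ordered by group mean, 4wd was the highest group for 6 members and 2dr the lowest for 5. None of the 21 steps between neighbouring groups in these orders was larger than the larger SD of the pair, and all neighbours overlapped. The order is thus a description and not a ranking that the arrays resolve.

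At 4wd, limma called 0 of 7 members at an adjusted p under 0.05 and at least 2-fold, where 0.444% of the 225 miRNAs tested were called. Of the members 6 lay above and 1 below control, with a median difference of 0.12 against 0.03 over all miRNAs tested, of which 52.0% lay above. None of the 7 had an unadjusted p under 0.05, nor did any member's 4wd arrays all lie on 1 side of the control arrays, which 8.89% of the miRNAs tested did. Within slide 1, 6 members lay above control and within slide 2, 4 did. In the fit without slide the 95% intervals reached 0.63 to 1.62 on either side of the estimates. There 2-fold differences (1 on the log2 scale) were outside the interval for miR-124 and within it for the others in at least 1 direction. With slide as a term the standard error fell from 0.75 to 0.23 for miR-9, around a difference of 0.12. For miR-138 it fell from 0.41 to 0.18, around 0.31, so the wide intervals of these members include the slide difference. The standard error did not fall for miR-137 (0.39 and 0.40) or miR-153 (0.52 and 0.53).

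At 2dr, limma again called 0 of 7 (0.889% of all miRNAs tested were called), and 0 of 7 had an unadjusted p under 0.05. All 7 members lay below control, with a median of -0.31, where 71.6% of all miRNAs tested lay below and their median was -0.25. With the 75th percentile taken over all mouse miRNAs instead, the median of all miRNAs tested was 0.03, and miR-128, miR-137 and miR-218 lay above control by 0.13, 0.28 and 0.08. The common direction of all 7 thus did not hold under that scaling, while miR-124, miR-9 and miR-138 lay below control under every setting run. No member's groups were free of overlap, which 5.78% of the miRNAs tested were. Within slide 1 all 7 lay below control (3 2dr arrays against 2), and within slide 2 the 1 2dr array lay below the control mean for 3 members and above it for 4.

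At 2wr no miRNA was called among the 225 (0%), and no member had an unadjusted p under 0.05. The members lay between -0.30 and 0.05 from control, 5 below and 2 above, with a median of -0.06 against -0.08 over all miRNAs tested. No member's groups were free of overlap, where 6.67% of the miRNAs tested were. With 2 arrays against 4 an exact two-sided permutation p cannot fall below 0.133.

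Between 2dr and 4wd no miRNA was called (0%). Members at 2dr lay below 4wd in 6 of 7 cases, with a median of -0.54 against -0.30 over all miRNAs tested, of which 68.0% lay below. Only miR-138 had an unadjusted p under 0.05, as 18.2% of all miRNAs tested did. No member's groups were free of overlap, against 8.44% of those tested. Within slide 1 all 7 members were lower at 2dr, by 0.47 to 1.25 on the log2 scale, while on slide 2 the 1 2dr array was above the 4wd mean for 4 of 7. With no scaling, where the median of all miRNAs tested was 0.27, miR-124, miR-137 and miR-218 were above 4wd (0.03, 0.32 and 0.26). Between 2wr and 2dr no miRNA was called (0%) and 6 members lay higher at 2wr, with a median of 0.14 against 0.12 over all, 0 of 7 with an unadjusted p under 0.05 and 0 of 7 with groups free of overlap (5.33% of those tested). These comparisons share arrays with those against control and are not separate evidence. The overall test across the 4 groups called 0 of 7 (0.444% of all tested), with adjusted p of 0.652 to 0.938 for the members and 0 of 7 unadjusted p under 0.05. The methods' test, analysis of variance with Tukey's comparison, called 0 of 7 in every comparison. Here Tukey's p, which already allows for the pairs of groups, was adjusted again over the miRNAs tested, which is stricter than 1 adjustment. The analysis of variance across the groups, adjusted over the miRNAs alone, called 0 miRNAs. After normexp background correction, which raised the median of all miRNAs tested to 0.79 at 4wd, miR-128 was called lower at 4wd (-1.02, adjusted p = 0.0466 from limma), where 73 of the 225 miRNAs tested (32.4%) were called under that setting and 2 of them (0.889%) lower.

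**Figure D2:**
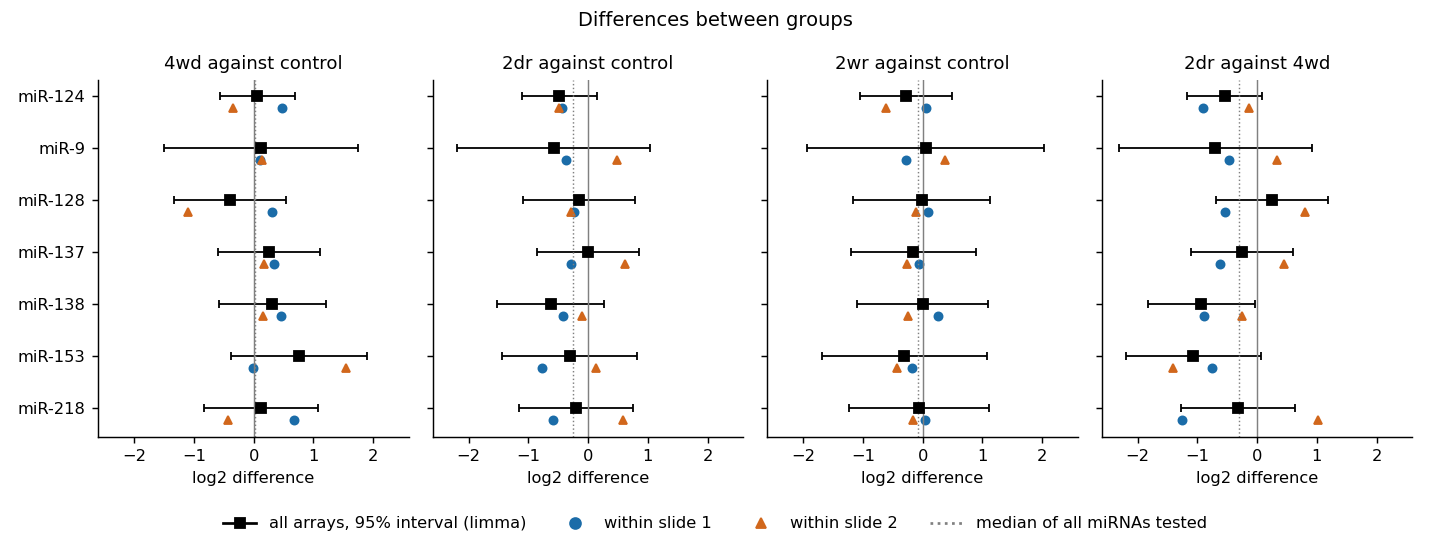
Differences between groups for each member (x axis: log2 difference; panels: 4 of the comparisons). Black squares with bars are limma estimates over all arrays with 95% intervals, blue circles and orange triangles the differences of means within slide 1 and slide 2, and the dotted line the median of all 225 miRNAs tested. All intervals include 0 except that of miR-138 for 2dr against 4wd, at -0.93, and the slides often fall on opposite sides of 0.

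The slides themselves differed for members. With group in the fit, limma called 2 of 7 members between the slides, where 13.3% of the 225 miRNAs tested were called, all of them higher on slide 2. miR-9 was 1.98 higher on slide 2 (95% interval 1.59 to 2.37, 3.95-fold, adjusted p = 9.72e-06), and miR-138 was 1.02 higher (0.71 to 1.33, 2.03-fold, adjusted p = 0.000291). Their slides did not overlap, which held for 9.33% of the miRNAs tested. The call for miR-9 held under every setting run and with any array left out. That for miR-138 fell short of 2-fold with the percentile over all mouse miRNAs (0.74), with the authors' values (0.78) and without control replicate 1, control replicate 3, 2dr replicate 2 or 2dr replicate 3 (at least 0.90), and missed the adjusted p after normexp (0.56, adjusted p = 0.177). miR-128 differed by -0.87 on slide 2 against slide 1 in the same fit (95% interval -1.39 to -0.35, adjusted p = 0.0177), short of 2-fold, where 30.7% of all miRNAs tested passed the adjusted p at any fold. It passed 2-fold with the percentile over all mouse miRNAs (-1.15) and with the authors' values (-1.11). The other members differed by -0.48 to -0.13, with adjusted p from 0.288 to 0.800. Because 2dr had 3 of its 4 arrays on slide 1, the slide enters the 2dr comparisons of miR-9 and miR-138 most, and with slide as a term no member passed the threshold in any comparison of groups (lowest adjusted p = 0.125, miR-138 for 2dr against 4wd).

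The arms of the miR-9 hairpin differed in how they followed the slide. The levels of miR-9* were 2.20, 1.74, 0.89 and 1.65 in control, 1.77, 1.64, 1.31 and 0.41 at 4wd, 1.75, 1.23, 1.60 and 1.39 at 2dr and 1.12 and 1.27 at 2wr. miR-9* was not called between the slides, at -0.42 on slide 2 against slide 1 (95% interval -0.91 to 0.07, adjusted p = 0.183 from limma). The log2 difference of miR-9 and miR-9* within an array, which scaling by a factor per array does not change, was -1.21 to -0.55 on the 8 slide 1 arrays (mean -0.91 ± 0.22, SD) and 1.20 to 1.99 on the 6 slide 2 arrays (mean 1.52 ± 0.29, SD). The arrays of both slides thus did not overlap in any group, and with group in the fit the shift between slides was 2.40. Both arms are cut from the same precursors, and the arrays of each diet lie on both sides of the split. The part of hybridization, washing, scanning or the mice in this shift was not tested. miR-138* was also higher on slide 2, by 1.84 (95% interval 0.76 to 2.91, adjusted p = 0.0172 from limma), and was not detected on 2 arrays, both of them on slide 1, of which 2dr replicate 2 entered the fit at the floor of -9.15. miR-124* differed by 0.64 (adjusted p = 0.206).

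**Figure D3:**
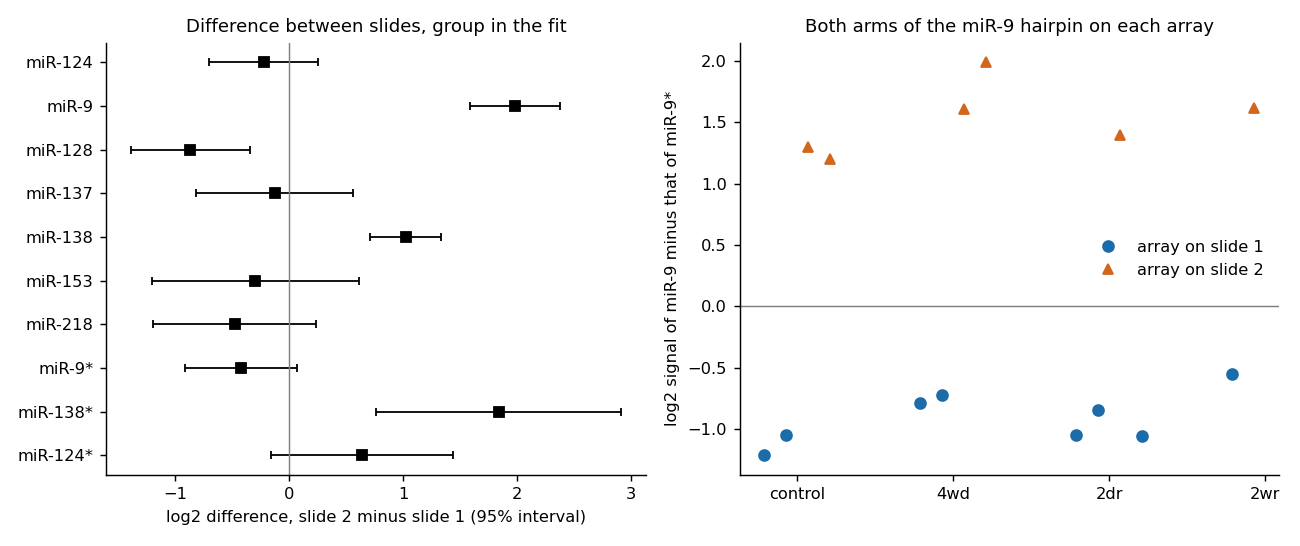
Left, difference between the slides for the members and 3 star arms (x axis: log2 difference, slide 2 minus slide 1, with group in the fit; bars: 95% interval). Right, log2 signal of miR-9 minus that of miR-9* on each array by group (blue circles slide 1, orange triangles slide 2). The slide 1 arrays lie between -1.21 and -0.55 and the slide 2 arrays between 1.20 and 1.99 in all 4 groups.

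Both probes of a member gave like results for most members. Over the 14 arrays the probes correlated with r of 0.99 for miR-9, miR-128, miR-137, miR-138 and miR-218, and their differences between groups lay within 0.22 of each other. For miR-124 r was 0.79, with a largest gap of 0.28. For miR-153 r was 0.78 and the gap reached 0.94, and 1 of its probes had total signals of only 0.894 to 30.4, so the other probe carried most of the total of miR-153. The slide difference of miR-9 was present in both probes, at 1.70 and 2.68, as was that of miR-138, with a gap of 0.03 between the probes, and that of miR-128, at -0.76 and -0.87.

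Levels of the members moved together across the arrays of slide 1. Whether the slides differed in this was not tested. Since the slides form separate clusters, correlations were taken within each slide, over 21 pairs of members. On slide 1 (n = 8 arrays) all 21 pairs had a positive Pearson r, with a median of 0.78 (0.38 to 0.93), where the median over all pairs of the 170 miRNAs detected on every array was 0.14 and 58.9% of those pairs were positive. On slide 2 (n = 6 arrays) 15 pairs were positive and 6 negative, with a median of 0.15 (-0.65 to 0.82), against 0.01 and 50.8% over all pairs. The slide 2 median was 0.50 without control replicate 3, -0.0058 without 4wd replicate 3 and -0.06 without 4wd replicate 4, so single arrays decide it. In all 15 pairs were positive on both slides, and 6 had opposite signs.

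Of the 42 correlations, 7 had a Benjamini-Hochberg adjusted exact permutation p under 0.05, all on slide 1. miR-124 and miR-138 had r = 0.91 (exact p = 0.000719, adjusted p = 0.0264) and rho = 0.95 (exact p = 0.00114, adjusted p = 0.0469) on slide 1, and r = 0.68 (exact p = 0.138) with rho = 0.54 (exact p = 0.297) on slide 2. Without the 2 arrays farthest from the median of miR-124, r was 0.80 on slide 1 and -0.19 on slide 2, so that the relation on slide 2 rests on those arrays. miR-128 and miR-137 had r = 0.90 (exact p = 0.00188, adjusted p = 0.0264) and rho = 0.93 (exact p = 0.00223, adjusted p = 0.0469) on slide 1, where r was 0.93 without the 2 farthest arrays, but 0.12 on slide 2 (exact p = 0.811). The other 5 pairs, miR-124 with miR-128 and miR-218, miR-218 with miR-9 and miR-138, and miR-128 with miR-218, had r of 0.87 to 0.93 with adjusted exact p of 0.0264 to 0.0298, and r of 0.69 to 0.80 without the 2 farthest arrays. On slide 2 their r lay between -0.17 and 0.77. Their adjusted p for rho were 0.0639 to 0.233. On slide 2 no pair passed the adjustment, and 1 had an unadjusted exact p under 0.05, miR-137 with miR-218 (r = 0.82, exact p = 0.0458).

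The arrays in these correlations differ in diet and depth and share a scaling, and the values move with it. The median r on slide 1 was 0.90 with no scaling, 0.49 after quantile normalization and 0.35 after normexp background correction, and the number of positive pairs was 21, 20 and 13 of 21 in that order. With each array's level taken relative to its group mean on slide 1, which leaves 7 arrays in 3 groups, the median was 0.70 and 19 of 21 pairs were positive.

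**Figure D4:**
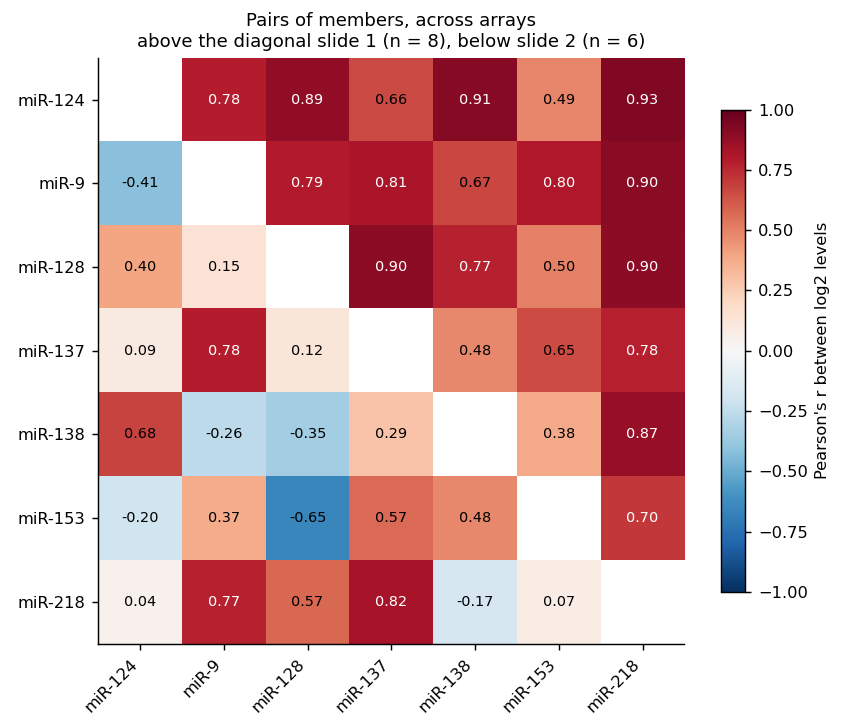
Pearson's r between the log2 levels of each pair of members (colour and printed value), over the 8 arrays of slide 1 above the diagonal and the 6 arrays of slide 2 below it. All 21 pairs are positive on slide 1, from 0.38 to 0.93, and 6 of 21 are negative on slide 2.

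For each member, the miRNAs most like it were taken by the mean over both slides of r, among the 170 miRNAs detected on all arrays. These were miR-300 (mean r 0.92) and miR-370 (0.91) for miR-124, and miR-376b* (0.90) and miR-218 (0.84) for miR-9. For miR-128 they were miR-551b (0.84) and miR-26a (0.80), and for miR-137 miR-376b* (0.89) and miR-369-5p (0.86). For miR-138 they were miR-127 (0.94) and miR-382 (0.91), for miR-153 miR-377 (0.86) and miR-29b (0.85), and for miR-218 miR-411 (0.92) and miR-551b (0.90). The only member among the nearest miRNAs of another was miR-218, for miR-9. These values are the highest of many and are given with no test.

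A wider list of 21 miRNAs known from neurons, among them miR-7a, miR-132, miR-212, miR-129-3p, miR-433 and miR-485, was set beside the members. Of these 21, 19 were tested and 16 were detected on all arrays. At 4wd 13 of 19 lay above control (52.0% of all tested), with a median of 0.33, and 3 had an unadjusted p under 0.05 (10.2% of all tested). At 2dr all 19 lay below control, with a median of -0.33 against -0.31 for the members and -0.25 for all miRNAs tested. Among the 19, miR-135b was detected on all control arrays but on 3 4wd, 3 2dr and 1 2wr arrays, so it entered the tests through control alone. Between 2dr and 4wd all 19 were below 4wd, with a median of -0.59 against -0.54 for the members and -0.30 for all. In this last comparison 11 of 19 had an unadjusted p under 0.05 (18.2% of all tested), for example miR-433 at -0.87 (adjusted p = 0.173 from limma) and miR-485 at -0.92 (adjusted p = 0.173), and limma called 0 of the 19 in any of the 5 comparisons of groups. The counts of the 19 are given under 1 scaling only. Between 2dr and 4wd the median of all miRNAs tested was 0.03 with the percentile over all mouse miRNAs and 0.04 with the authors' values. Both arms of miR-129 are among the 19, so these do not all come from separate hairpins. miR-382, also among them, lies in the stretch of chromosome 12 described under other observations, and the positions of the rest are not given here. Whether the 19 vary independently of each other was not tested.

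Levels of the markers of other cell types are set beside the members here. The summed level of the oligodendrocyte miRNAs (miR-219, miR-338-3p and miR-338-5p), relative to the 75th percentile, was 1.96 to 10.9 in control, 1.44 to 2.63 at 4wd, 1.76 to 6.73 at 2dr and 3.10 and 3.54 at 2wr, with 0 of 3 called in the 5 comparisons of groups. At 4wd 0 of the 3 lay above control (52.0% of all tested), with a median of -1.17, and 2 had an unadjusted p under 0.05 from limma (10.2% of all tested). Of the 3, miR-338-5p was detected on 4 of 4 control, 2 of 4 4wd, 1 of 4 2dr and 1 of 2 2wr arrays. It entered the tests through control alone, so its place below control, and the counts and median that include it, are a description. Between the slides 1 of the 3 was called, miR-338-5p, higher on slide 2 by 1.96 (adjusted p = 0.0188 from limma). The summed level of the microglia and macrophage miRNAs (5 on the array, 4 tested) was 0.082 to 0.136 in control, 0.178 to 0.350 at 4wd, 0.303 to 1.46 at 2dr and 0.222 and 0.688 at 2wr, with 1 of 4 called at 4wd (0.444% of all tested) and 2 of 4 at 2dr (0.889%). The 4wd call and 1 of the 2dr calls were miR-155, which was detected on 0 of 4 control, 1 of 4 4wd, 4 of 4 2dr and 1 of 2 2wr arrays and entered the tests through 2dr alone, so these calls are a description. At 4wd 3 of the 4 tested lay above control (52.0% of all tested). miR-223 was detected on 4 of 4 control, 0 of 4 4wd, 3 of 4 2dr and 1 of 2 2wr arrays, so the list did not move as 1. miR-142-5p was detected on 1 array of 14. The summed level of the red blood cell miRNAs was 0.465 to 0.986 in control, 0.363 to 0.602 at 4wd, 0.463 to 0.770 at 2dr and 0.558 and 0.648 at 2wr, with miR-144 detected on no array, and that of the endothelial miRNAs was 0.647 to 1.19, 0.616 to 1.00, 0.682 to 1.05 and 0.803 and 0.847 in the same order. The summed level of the 7 members was 25.3 to 30.6 in control, 17.4 to 39.1 at 4wd, 17.5 to 28.1 at 2dr and 25.5 and 27.8 at 2wr. The part of these cell types in the members' values was not tested.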

How the data were processed

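The authors' image software (Feature Extraction 10.5.1.1 in the headers and labels, a later version in the methods) subtracted background and summed each miRNA's probes into a total, so that the deposited scanner files hold linear intensity and detection flags (other values, as deposited), not scaled between arrays. The authors' own processed log2 values for these arrays, a deposited table, served as an alternative.

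Total intensity was divided by the array's 75th percentile among the 170 miRNAs with a detection flag on each array. A floor of 0.00176 (log2 -9.15) preceded log2. Tests covered 225 of 566 miRNAs, those with a detection flag throughout 1 or more of the groups. limma 3.58.1 (R 4.3.3), tested on simulated data, was fitted to 14 arrays with 4 groups. A call needed 2-fold and, after Benjamini-Hochberg adjustment, p under 0.05. Slide differences came from a fit with group and slide. Exact permutation tests (scipy 1.17.1) were two-sided and cannot go below 0.0286 for 4 arrays against 4. Whether the mice shared litters or cages is not given in the sources used here. The members and lists were chosen with earlier results of these data known. The text names the members, their other arms, the 2 miRNAs nearest to each and the lists. Array names were matched by hand to RefSeq arm names, in GRCm38.p6, while the array design used mm9, and no probe sequence was used here.

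Deviations of same-numbered arrays of different groups correlated above 0.1 in all 13 pairs on 1 slide (0.19 to 0.74) and in 0 of 5 pairs across slides (-0.61 to 0.10), so the number tracks the slide. All 4 pairs of control and 4wd passed 0.1 (0.29 to 0.71), and other comparisons held at least 1 pair that did not. The number as a block was therefore an alternative, beside the slide. No pair of arrays was closer than a median difference of 0.22 (log2). Alternatives covered signal measure, background, scaling, filter, floor, model, test, the slide or replicate number as a block, the authors' values and each array left out. The number of arrays limits the precision.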

Additional observations from a re-analysis of the deposited data

Results flagged for a closer look

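On 2dr replicate 3 miR-9 had a level of 3.00, far from the other 3 arrays of its group (0.34 to 0.70), by Dixon's criterion at its 95% level. This was the only such array among 24 groups of 4 arrays (7 members and miR-9* in 3 groups), where chance alone gives about 1 in 20. It is also the only 2dr array on slide 2, where the highest control and 4wd arrays were at 2.85 and 2.91. Whether the array or the mouse accounts for it was not tested.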

How the results depend on the processing

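The 35 differences between groups of the 7 members were recomputed under 15 settings and without each of the 14 arrays, and 8 kept 1 sign throughout. No member was called in any fit that left out an array (lowest adjusted p = 0.0970 from limma). Of the other settings only normexp gave a call, miR-128 at 4wd (-1.02), where it called 73 of the 225 miRNAs tested (32.4%), 2 of them (0.889%) lower. The causes of the changes below were not tested. The number of arrays and, for miR-153, signal over background limit all of these values.

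Signs turned as follows. At 4wd against control, normexp gave -0.48 (miR-124), -0.16 (miR-9) and -0.047 (miR-218), quantile normalization -0.32 (miR-124) and the authors' values -0.023 (miR-124). No scaling gave -0.91 (miR-124), -0.85 (miR-9), -0.72 (miR-137), -0.66 (miR-138), -0.21 (miR-153) and -0.86 (miR-218), with -0.93 for the median of all miRNAs. At 2dr against control, the percentile over all mouse miRNAs gave 0.13 (miR-128), 0.28 (miR-137) and 0.084 (miR-218), the authors' values 0.11, 0.26 and 0.064 for the same, normexp 0.090 (miR-137) and 0.026 (miR-153), and quantile normalization 0.021 (miR-137). At 2wr against control, no scaling gave -0.37 (miR-9) and -0.42 (miR-138), the percentile over all 0.16 (miR-128), 0.016 (miR-137) and 0.12 (miR-218), the authors' values 0.13 (miR-128) and 0.085 (miR-218), and the mean of the spots -0.0051 (miR-138). At 2dr against 4wd, no scaling gave 0.030 (miR-124), 0.32 (miR-137) and 0.26 (miR-218), the percentile over all 0.070 (miR-137) and 0.0083 (miR-218), and the authors' values 0.087 (miR-137) and 0.027 (miR-218). At 2wr against 2dr, quantile normalization gave -0.11 (miR-124), -0.0066 (miR-128) and -0.085 (miR-153), and for miR-153 normexp gave -0.077, the percentile over all -0.10, no scaling -0.014 and the authors' values -0.12. Between slides, miR-124 turned to 0.14 (normexp), 0.016 (quantile) and 0.012 (no scaling), and miR-137 to 0.11 (no scaling).

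The replicate number as a block called 1 miRNA at 4wd and 2 at 2dr, as without it, and no member (lowest adjusted p = 0.101 from limma) and turned 2wr against 2dr to -0.27 (miR-128), -0.18 (miR-153) and -0.14 (miR-218). The overall test then called 2 miRNAs.

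Leaving out 1 array gave, at 4wd against control, -0.13 to 0.29 (miR-124), -0.75 to 0.015 (miR-128), -0.14 to 0.53 (miR-218) and -0.25 to 0.51 (miR-9). At 2dr against control it gave -0.21 to 0.24 (miR-137) and -0.78 to 0.0045 (miR-153), and at 2dr against 4wd -0.16 to 0.60 (miR-128). At 2wr against control the ranges were -0.31 to 0.28 (miR-128), -0.39 to 0.087 (miR-137), -0.30 to 0.31 (miR-138), -0.91 to 0.30 (miR-153), -0.35 to 0.23 (miR-218) and -1.11 to 1.21 (miR-9). At 2wr against 2dr they were -0.062 to 0.47 (miR-124), -0.16 to 0.43 (miR-128), -0.38 to 0.073 (miR-137), -0.60 to 0.61 (miR-153), -0.15 to 0.43 (miR-218) and -0.54 to 1.78 (miR-9). The slide difference of miR-137 ran from -0.36 to 0.076. The median r within slide 2 ran from -0.062 (without 4wd replicate 4) to 0.50 (without control replicate 3). The number of miRNAs called at 2dr was 1 or 2, and that at 4wd, at 2wr and in the overall test was 0 or 1 each.

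Of all miRNAs tested, 1 was called at 4wd, but 73 with normexp and 0 with the mean of the spots, quantile normalization, no scaling, either other floor, no filter, the fully detected miRNAs alone, the trended robust model or the methods' test. At 2dr 2 were called, but 0 with normexp, no scaling or the methods' test and 1 with the higher floor, no filter or the fully detected miRNAs alone. At 2wr none was called, but 1 with the percentile over all, the authors' values or the slide as a block. The overall test called 1, but 2 with the trended robust model and 0 with normexp, no scaling, either other floor, no filter, the fully detected miRNAs alone or the methods' test. Between slides 30 were called, but 3 with normexp, 77 with no filter and 13 with the fully detected miRNAs alone. The median r within slide 1 (0.78) was 0.35 with normexp, 0.57 with the percentile over all, 0.49 with quantile normalization and 0.58 with the authors' values, and that within slide 2 (0.15) was 0.83 with no scaling. A fit restricted to a pair of groups gives no overall test.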

Other observations

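Of the 12 miRNAs named as nearest to a member, 8 have their hairpins on chromosome 12 within chr12:109592846-109743496 (GRCm38.p6), a stretch in the imprinted Dlk1-Dio3 region. They are miR-300, miR-370, miR-376b*, miR-369-5p, miR-127, miR-382, miR-377 and miR-411. Of the 156 miRNAs detected on all arrays that could be given a position by name, 27 (17.3%) lie in the same stretch. The stretch was set by these 8 miRNAs after their values were seen, so the counts are a description with no test.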
